A study of Mus musculus with 113 samples.

Results

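Expression of 10 Hippo pathway genes was followed in mouse embryos from the 2-cell (2C) to the 8-cell (8C) stage, in controls and after loss of the nuclear receptor NR5A2. The genes were listed by name. They are the coactivators *Yap1* and *Wwtr1*, the kinases *Lats1* and *Lats2*, the angiomotins *Amot*, *Amotl1* and *Amotl2*, the scaffold *Nf2*, and the transcription factors *Tead1* and *Tead2*. These are 10 of the 24006 genes in each expression table. The study asked which of 4 nuclear receptors, NR5A2, RARG, NR1H3 and NR2C2, early embryos need between genome activation and the first lineage choice. All embryos were wild type, and zygotes received small interfering RNAs (siRNAs) for knockdown (KD), negative control (NC) siRNA, or base editing reagents against *Nr5a2*. RNA was sequenced from 32 pools of embryos and 60 single embryos. Expression was given as FPKM, a fragment count corrected for the length of the transcript and the size of the library, so levels can be set side by side between genes.

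The siRNA groups had 2 pools each. A quadruple knockdown (4KD) carried siRNAs against all 4 receptors at 5 µM per gene and was collected at the 4-cell (4C) stage and at 8C, each with NC at 20 µM. A triple knockdown (3KD) series at 8C left out the *Nr5a2*, *Rarg*, *Nr1h3* or *Nr2c2* siRNA in turn, with NC at 15 µM. Single KD of each receptor at 8C used 5 µM, with NC at 5 µM. *Nr5a2* KD at 2C used 20 µM siRNA, with NC at 20 µM. The editing groups were single embryos at 2C and at 8C. At each stage 8 embryos received base editor (BE) mRNA alone, 8 received *Nr5a2* sgRNA alone, and 14 received both (BE + sgRNA), at 100 ng/µL. The share of edited *Nr5a2* reads in each embryo was not analysed here, so embryos were grouped by what was injected. Nothing says that replicate pools came from separate matings, and p-values measure the spread between these libraries.

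The Hippo pathway links cell contact and polarity to transcription. When it is active, NF2 and the angiomotins bring the LATS kinases to the membrane, and LATS1 and LATS2 phosphorylate YAP1 and TAZ (the product of *Wwtr1*), which then stay out of the nucleus. When it is inactive, YAP1 and TAZ enter the nucleus and work with TEAD proteins, of which TEAD4 is the one best known in the early embryo, to switch on trophectoderm genes in the outer cells of the morula.

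The FPKM tables hold no read counts, so absolute depth is unknown. Depth relative to the median library, read from the smallest FPKM steps, was 0.363 to 1.516, and libraries had 5472 to 11921 genes at 1 FPKM or more. In 3 libraries, the data column carried a 4-cell name although the label gave another stage, and the labels were kept. The 2C sgRNA embryo 8 had a summed level of the 5 fixed 2C markers of 2.68 FPKM, against 73.6 to 931.3 FPKM in the other 7 embryos of its group. The 8C BE + sgRNA embryos 13 and 14 are described with the editing results, together with embryo 8 of that group, which had the fewest genes of all 92 libraries. The summed level of 7 cumulus cell markers was 1.03 to 75.8 FPKM, and of these *Amhr2* alone passed the filter on low values in the 8C pools. In such bulk samples, fewer cells and less RNA per cell cannot be told apart.

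Between 2C and 8C most genes changed, and the members with them: in single control embryos 7 of the 8 members tested passed, at a background of 72.5% of all 12991 genes. In mean level, the coactivators exchanged places as the most abundant members of the control groups. *Yap1*, a coactivator that the oocyte also supplies, had 12.5, 35.6 and 75.1 FPKM as the lowest, median and highest level in 16 control embryos (BE alone or sgRNA alone) at 2C. At 8C the 16 control embryos had 6.10, 10.1 and 15.6 FPKM, so that the ranges overlapped at their ends. The difference was -1.65 ± 0.23 (log2 fold change ± SE on the log2(FPKM + 1) scale used throughout, limma adjusted p = 4.7e-09). *Wwtr1*, which encodes the other coactivator, TAZ, moved the opposite way. It had 1.80, 5.90 and 12.2 FPKM at 2C and 5.83, 23.2 and 46.2 FPKM at 8C, a rise of 1.77 ± 0.26 or 3.41-fold (adjusted p = 2.96e-08). A call here and below is an adjusted p under 0.05, with the adjustment over all genes tested.

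The control pools gave the same order of stages for both coactivators. *Yap1* was at 31.1 and 45.1 FPKM in the 2 NC pools at 2C, at 8.21 and 7.95 FPKM in the 2 NC pools at 4C, and at 2.41 to 12.2 FPKM in the 6 NC pools at 8C. No 4C or 8C pool reached the 2C pools, and *Yap1* fell by 2.08 ± 0.46 from 2C to 4C (adjusted p = 0.00808) and by 2.54 ± 0.38 from 2C to 8C (adjusted p = 0.000451). *Wwtr1* was at 4.79 and 10.4 FPKM at 2C, at 8.92 and 13.2 FPKM at 4C, and at 18.9 to 36.0 FPKM at 8C. Its rise of 1.65 ± 0.38 from 2C to 8C passed the test (adjusted p = 0.00541). In mean level, *Yap1* stood first among the members at 2C with 38.1 FPKM, ahead of *Nf2* with 24.7 FPKM and *Wwtr1* with 7.61 FPKM. At 4C, *Wwtr1* (11.1 FPKM), *Nf2* (10.2 FPKM) and *Yap1* (8.08 FPKM) followed each other so closely that each overlapped the next in its pools. In the NC pools of the single KD series at 8C, *Wwtr1* led with 33.6 FPKM and did not overlap *Nf2*, which followed with 11.3 FPKM. The NC pools of the 4KD series at 8C were also apart, with 21.9 and 13.2 FPKM. In those of the 3KD series *Wwtr1* led in mean level alone (20.2 and 12.1 FPKM), and the ranges overlapped. They overlapped in the 8C BE and 8C sgRNA embryos as well. The 2C pools were an experiment of their own, and 1 of the 2 NC pools at 2C had a column name of the 4KD series. In the pools, stage and experiment thus cannot be told apart. The single embryos of both stages were taken as 1 experiment, which no label states. Their column names give 2 editors, and the calls within each editor are given below.

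Of the LATS kinases, which phosphorylate and thereby hold back YAP1 and TAZ, *Lats2* rose with stage in embryos and pools, while *Lats1* fell in the single embryos. *Lats2* was at 0.113 and 0.0848 FPKM in the 2C NC pools, at 1.94 and 4.92 FPKM in the 4C NC pools, and at 3.38 to 10.8 FPKM in the 8C NC pools. The 4C and 8C pools did not overlap the 2C pools, and *Lats2* rose by 1.92 ± 0.59 to 4C (limma adjusted p = 0.032) and by 2.77 ± 0.48 to 8C (adjusted p = 0.00106). In this fit *Lats2* passed the filter on low values only through the 4C and 8C groups, as its 2C mean was 0.0988 FPKM. A gene that low at 2C could be tested only if it rose, so these calls are no support of their own. In single control embryos *Lats2* rose by 1.02 ± 0.33 (adjusted p = 0.0048), from a median of 0.918 to 3.00 FPKM, with wide overlap. There it passed the filter at 2C as well, with means of 1.78 FPKM in BE and 1.14 FPKM in sgRNA embryos. The BE mean held embryo 1 at 9.92 FPKM, with a group median of 0.446 FPKM. The sgRNA mean held embryo 8, with the 4-cell name, at 3.14 FPKM, against 0.255 to 1.60 FPKM in the other 7. *Lats1* stayed low throughout, with a highest value of 4.41 FPKM in any of the 92 libraries. It fell by 0.67 ± 0.17 between 2C and 8C control embryos (adjusted p = 0.000572), from a median of 2.58 to 1.04 FPKM, but with quantile normalization its difference was 0.01. In the NC pools the *Lats1* difference was -0.19 ± 0.36 from 2C to 8C (adjusted p = 0.684) and -0.29 from 2C to 4C (adjusted p = 0.656), so that the fall was called in the embryos without that normalization and not in the pools. In those embryos the median of all genes was itself -0.31, or -0.48 with median-ratio scaling and -0.01 with quantile normalization.

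Among the angiomotins, which bind YAP1 and bring LATS kinases to the membrane, *Amot* rose and *Amotl1* was near absent. *Amot* had a median of 1.21 FPKM in 2C and 4.55 FPKM in 8C control embryos, a rise of 1.30 ± 0.25 (adjusted p = 5.48e-06). In the NC pools it went from 0.749 and 1.33 FPKM at 2C to 2.43 to 8.45 FPKM at 8C, without overlap, and the difference of 1.31 ± 0.58 missed the threshold (adjusted p = 0.0854). *Amotl2* ranged from 0 to 4.84 FPKM at 2C and from 0.0602 to 8.20 FPKM at 8C in control embryos, and its difference of 0.53 ± 0.36 was within the spread (adjusted p = 0.19). *Amotl1* never exceeded 0.621 FPKM, was listed at 0 in 25 of the 92 libraries, and passed the filter on low values (a mean of 1 FPKM in a group) nowhere.

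*Nf2*, which encodes the membrane scaffold Merlin, had medians of 26.4 FPKM at 2C and 11.99 FPKM at 8C in control embryos. It fell by 0.81 ± 0.23 (adjusted p = 0.00179), and its difference of -1.03 in the pools had an adjusted p of 0.13. *Tead2*, one of the 4 TEAD partners of the coactivators, fell by 1.58 ± 0.26 (adjusted p = 2.33e-07), from a median of 3.50 FPKM at 2C to 0.484 FPKM at 8C. It was listed at 0 in 4 of the 16 control embryos at 8C and in none at 2C. Its 8C means of 0.956 FPKM (BE) and 0.501 FPKM (sgRNA) were under the filter on low values. At 8C the BE + sgRNA group alone passed it, at a mean of 1.05 FPKM, with a median of 0.326 and a highest value of 7.44 FPKM. The *Tead2* call is thus little support of its own. *Tead1* was at or under 3.41 FPKM in all 92 libraries and was tested only in comparisons of pools. Its medians in control embryos were 0.229 FPKM at 2C and 0.580 FPKM at 8C.

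**Figure D1:**
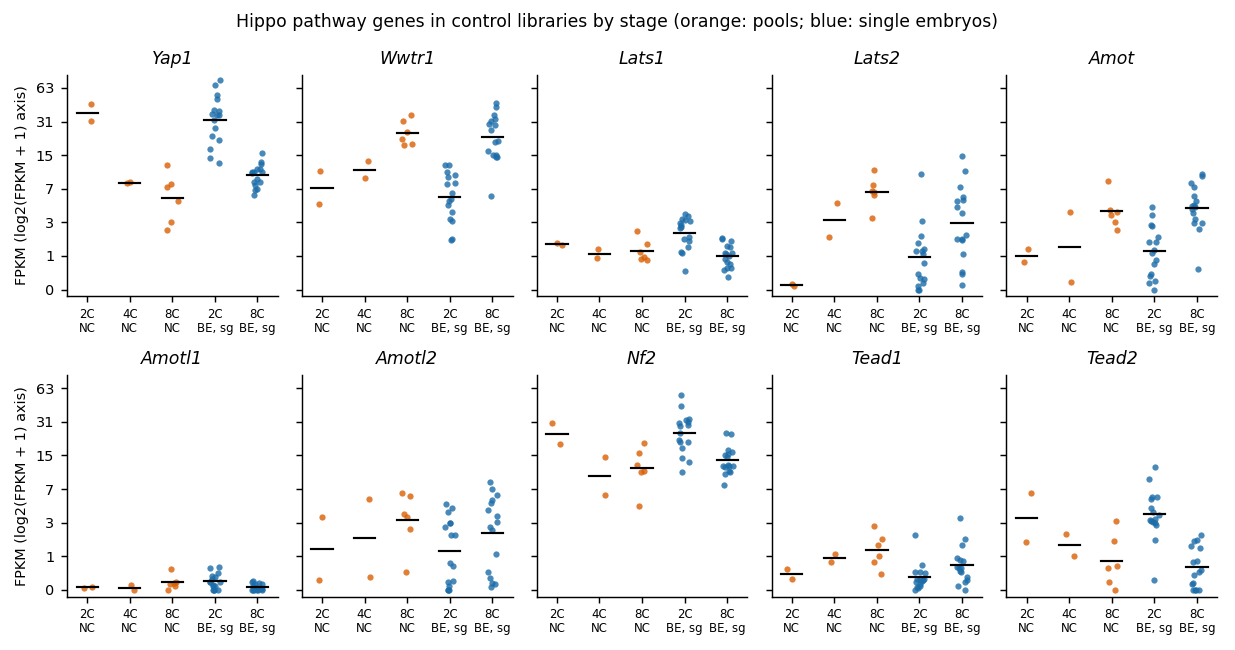
FPKM of the 10 genes in control libraries by stage (y axis spaced as log2(FPKM + 1)); each point is a library, orange for NC pools and blue for single embryos with BE or sgRNA alone, and each line is the mean on that log scale. *Yap1*, *Nf2* and *Tead2* stand higher at 2C than at 8C, *Wwtr1*, *Lats2* and *Amot* stand higher at 8C, and *Amotl1* stays under 0.621 FPKM.

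Of the 8 members tested between 2C and 8C control embryos, 3 rose and 4 fell, and a share of this size was general at this step. The median of the members was -0.07 against -0.31 for all genes. The column names of the embryos with BE give 2 editors, eBE and BE4, while those of the sgRNA embryos name none. A setting with the BE embryos alone as controls, 4 embryos a side, was added after the data had been seen. Among the libraries named for eBE, 5 of the 7 calls remained (*Yap1*, *Wwtr1*, *Amot*, *Nf2* and *Tead2*). Among those named for BE4, 2 remained (*Wwtr1* and *Tead2*). The share of all genes called in these smaller fits is not given here, so the drop cannot be set against a background. From 2C to 4C in NC pools, 2 of 9 members were called, at a background of 28.2%. From 2C to 8C in NC pools, 3 of 9 were called, at a background of 46.6%. An unadjusted p under 0.05 was found for 5 members and for 6644 of 12181 genes. From 4C to 8C in the NC pools of the 4KD series, limma called 0 of 9 members and 0.0% of all genes. An unadjusted p under 0.05 was found for 1 member, *Wwtr1*, and for 776 of 10476 genes. The *Wwtr1* difference was 0.94 ± 0.40 (limma adjusted p = 0.667). Oocyte markers moved with stage as well. The summed level of the 5 was 228.3 to 4302 FPKM in 2C libraries other than sgRNA embryo 8, which had 34.8 FPKM, and 7.25 to 265.6 FPKM in 8C libraries, and the part of remaining oocyte RNA in the levels at 2C was not tested.

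A list of 33 further genes of the pathway was read beside the members. Between 2C and 8C control embryos, 22 of the 33 were tested, of which 5 rose and 9 fell, with a median of -0.23 against -0.31 for all genes. These 14 calls stand beside the background of 72.5%. *Tead4*, which encodes the TEAD factor of the early embryo, rose by 3.66 ± 0.33 (adjusted p = 6.54e-15), the largest change of the list. *Stk4*, which encodes the upstream kinase MST1, rose by 1.42 (adjusted p = 5.48e-07). *Ajuba* and *Limd1*, which encode LIM proteins that restrain LATS kinases, fell by 1.38 and 2.47, and *Wwc2*, which encodes a KIBRA family scaffold, fell by 2.82. In NC pools, 2 of 22 rose and 3 fell from 2C to 8C, with *Tead4* at 2.54, *Ctgf*, a classic YAP target gene, at 1.87, *Wwc2* at -3.02, *Limd1* at -2.30 and *Ajuba* at -1.71, where 46.6% of all genes were called. *Ctgf* was listed at 0 in both 2C NC pools, so that it passed the filter on low values only through later stages. *Limd1* stood under that filter in the 8C controls, with means of 0.444 FPKM in embryos and 0.195 FPKM in NC pools. It passed through 2C, so its falls, also that to 4C, are no support of their own. From 2C to 4C, 1 of 22 rose, *Tead4*, by 1.96, and 2 fell, *Wwc2* by 3.91 and *Limd1* by 1.92, where 28.2% of all genes were called.

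At 8C, the siRNA pools were compared to ask which receptor's loss moves these genes. Over all pools, *Wwtr1* rose with *Nr5a2* siRNA and *Lats2* fell. *Tead2* was lower too, but entered the test only through groups without that siRNA. The targeted receptors were checked first. *Nr5a2* was at 3.90 to 12.8 FPKM in the 10 pools with *Nr5a2* siRNA and at 27.1 to 50.3 FPKM in the 14 pools without, with no overlap. One additive fit over all 24 pools, with a term for each siRNA and for each experiment, gave -2.17 for *Nr5a2* (adjusted p = 1.4e-08), -3.06 for *Nr1h3* and -2.26 for *Nr2c2* under their own siRNAs. *Rarg*, at -1.68 under its own siRNA, did not pass (adjusted p = 0.193).

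*Wwtr1* was at 18.9 and 24.9 FPKM in the NC pools of the 4KD series and at 49.2 and 51.0 FPKM in 4KD. In the 3KD series it was at 19.2 and 21.2 FPKM in NC and at 26.7 and 29.7 FPKM where the *Nr5a2* siRNA was left out. Where it was kept, *Wwtr1* was at 47.4 and 58.1 FPKM without *Rarg* siRNA, at 40.3 and 64.4 FPKM without *Nr1h3* siRNA, and at 57.1 and 62.1 FPKM without *Nr2c2* siRNA. The 3KD pools with *Nr5a2* siRNA thus lay above all those without it. Among single KD pools, NC had 31.2 and 36.0 FPKM, *Rarg* KD had 25.6 and 32.4 FPKM, *Nr1h3* KD had 21.0 and 21.8 FPKM, and *Nr2c2* KD had 19.5 and 20.5 FPKM. *Nr5a2* KD had 29.5 and 76.1 FPKM, so that one of its pools lay just below both of its NC pools and the other was the highest of all 92 libraries. Over the 24 pools, *Wwtr1* had a median of 54.0 FPKM with and 23.3 FPKM without *Nr5a2* siRNA, and 9 of the 10 pools with it lay above all 14 without.

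In the additive fit, *Nr5a2* siRNA raised *Wwtr1* by 1.03 ± 0.18 or 2.04-fold (adjusted p = 0.000242). *Wwtr1* did not pass under the other siRNAs, with 0.24 ± 0.18 for *Rarg*, 0.05 ± 0.18 for *Nr1h3* and -0.10 ± 0.18 for *Nr2c2*. The *Nr5a2* effect minus the mean of the other 3 effects, a comparison added after the data had been seen, was 0.96 ± 0.22 for *Wwtr1* (adjusted p = 0.00588). The additive value rests on the 3 experiments together. Within the 3KD series it was 1.07 (adjusted p = 0.0877) and within the single KD series 0.49 (adjusted p = 0.607), and without the second 3KD pools, which by their column names were a library set of their own, it was 1.01 (adjusted p = 0.00436). Leaving out any 1 of the 24 pools gave 0.87 to 1.23 for *Wwtr1*, all of them called.

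*Lats2*, the kinase that restrains the product of *Wwtr1*, was at 6.65 and 7.58 FPKM in NC and at 1.13 and 2.06 FPKM in 4KD, without overlap. In the 3KD series it was at 5.99 and 6.53 FPKM in NC, at 4.89 and 9.85 FPKM without *Nr5a2* siRNA, at 1.33 and 6.51 FPKM without *Rarg* siRNA, at 2.59 and 4.86 FPKM without *Nr1h3* siRNA, and at 2.58 and 2.90 FPKM without *Nr2c2* siRNA. Single *Nr5a2* KD had 2.44 and 4.88 FPKM against 3.38 and 10.8 FPKM in its NC pools, which overlap. Across the 24 pools the medians were 2.59 FPKM with and 6.56 FPKM without *Nr5a2* siRNA, and the ranges of 1.13 to 6.51 FPKM and 3.38 to 12.4 FPKM overlapped. The additive *Nr5a2* effect on *Lats2* was -0.91 ± 0.26, or 0.533-fold (adjusted p = 0.0193). It lost its call without the second pools of the 3KD series (-0.68, adjusted p = 0.164), without the second 3KD pool that lacked *Nr5a2* siRNA (-0.76, adjusted p = 0.0788), and without the first *Nr5a2* KD pool (-0.84, adjusted p = 0.0697).

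*Tead2* was low in all 8C pools, at or under 3.71 FPKM, and its additive *Nr5a2* effect was -0.78 ± 0.26 (limma adjusted p = 0.0438). It passed the filter on low values only through groups without *Nr5a2* siRNA. No group with that siRNA reached a mean of 1 FPKM, the highest being 0.968 FPKM in 4KD. A gene that low could be tested only if it stood higher without the siRNA, so the call is no support for a fall. The medians were 0.322 FPKM with and 1.38 FPKM without *Nr5a2* siRNA. The difference was largest in the 3KD series. Its 6 pools with *Nr5a2* siRNA had 0 to 0.349 FPKM, among them both pools without *Rarg* siRNA at 0, against 1.75 and 3.71 FPKM where the *Nr5a2* siRNA was left out and 0.166 and 1.77 FPKM in NC. Within the single KD series the sign turned, at 0.36, with 0.510 and 0.772 FPKM in *Nr5a2* KD against 0 and 0.620 FPKM in NC. *Tead2* kept its call in 8 of 24 fits that each left out 1 pool, and lay at -0.57 (adjusted p = 0.168) without the first 3KD pool that lacked *Nr5a2* siRNA.

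**Figure D2:**
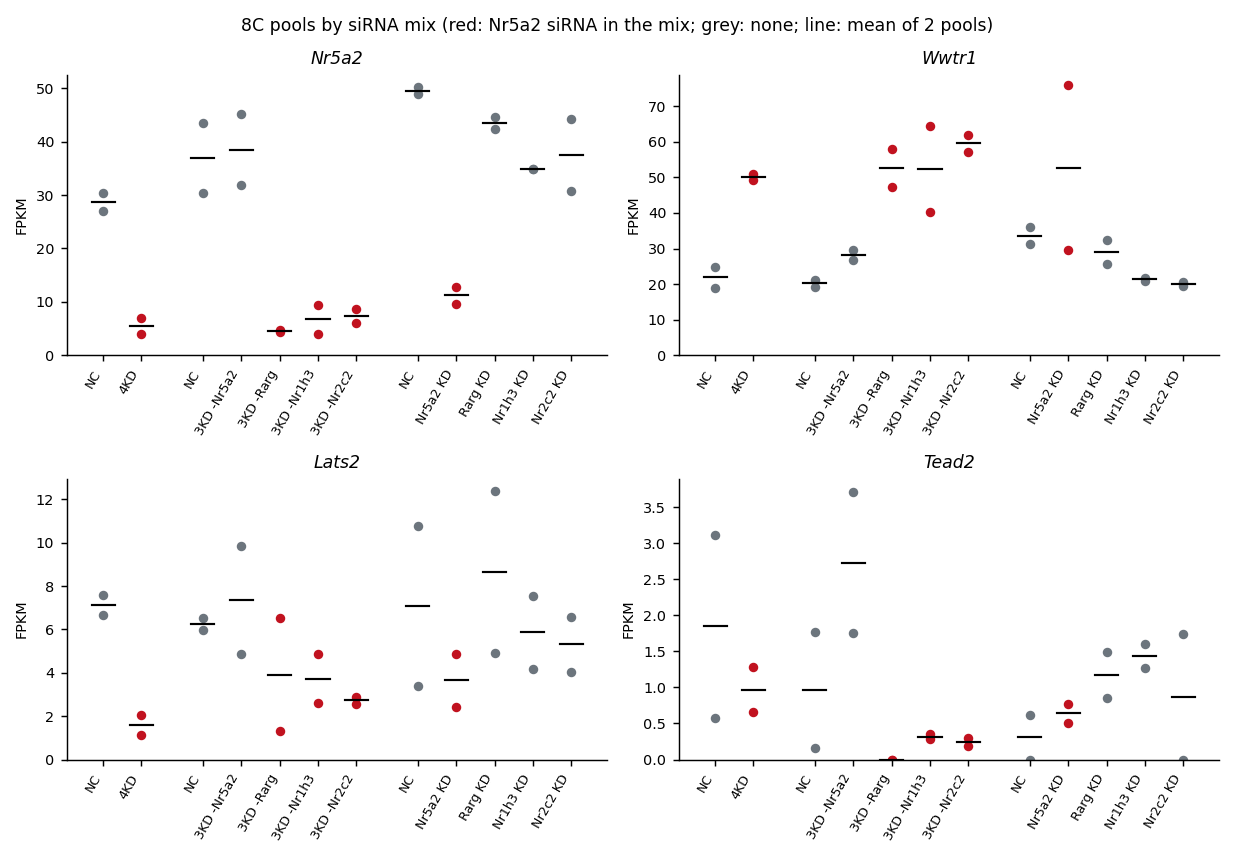
FPKM of *Nr5a2*, *Wwtr1*, *Lats2* and *Tead2* in each 8C pool, by siRNA mix and experiment (points: pools; lines: means of 2 pools; red: *Nr5a2* siRNA in the mix; grey: none). *Wwtr1* lies at 29.5 to 76.1 FPKM in red pools and 18.9 to 36.0 FPKM in grey pools, and *Lats2* and *Tead2* overlap more.

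The other members did not pass with *Nr5a2* siRNA. *Yap1*, the paralog of *Wwtr1*, had an effect of -0.01 ± 0.26, with 2.63 to 10.3 FPKM in pools with and 2.41 to 12.2 FPKM in pools without *Nr5a2* siRNA. *Lats1* had -0.07 ± 0.18, *Amot* 0.00 ± 0.23, *Amotl2* 0.41 ± 0.36, *Tead1* -0.31 ± 0.20 (adjusted p = 0.3) and *Nf2* -0.31 ± 0.33 (adjusted p = 0.587). *Nf2* and *Amotl2* split the 3KD series by library set instead. *Nf2* had 13.97 to 20.9 FPKM in the 5 first pools and 3.21 to 4.97 FPKM in the 5 second pools, NC included, and *Amotl2* had 3.76 to 6.72 FPKM and 0.454 to 3.38 FPKM. In all, 3 of the 9 members tested were called with *Nr5a2* siRNA, 1 higher and 2 lower, at a background of 15.6% of 11290 genes. Of the 2 lower, *Tead2* passed the filter only through groups without that siRNA. The additive effects of the other siRNAs called no member by limma, and no member had an unadjusted p under 0.05 with any of them. Their backgrounds were 0.0% for *Rarg*, 0.0177% for *Nr1h3* and 0.354% for *Nr2c2*. An unadjusted p under 0.05 was found for 297, 367 and 433 of 11290 genes in that order. For the *Nr5a2* effect minus the mean of the other 3, 1 of 9 members was called, at a background of 9.64%. An unadjusted p under 0.05 was found for 2673 of 11290 genes and for 3 members. *Lats2* (-0.81, adjusted p = 0.124) and *Tead2* (-0.97, adjusted p = 0.0567) were the other members of those 3.

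**Figure D3:**
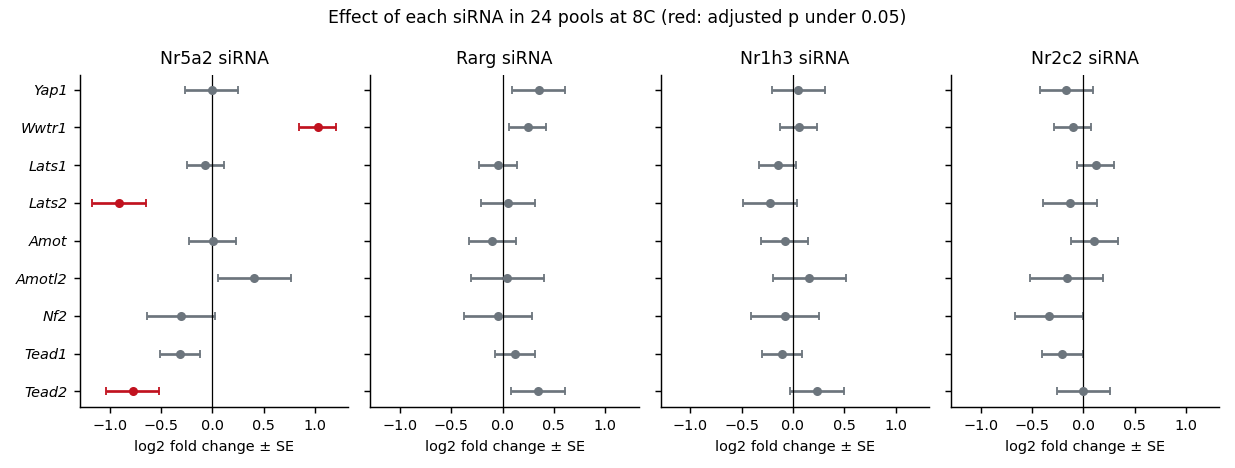
Additive effect of each siRNA at 8C on the 9 members tested (x axis: log2 fold change ± SE; red: adjusted p under 0.05; 24 pools). Red points appear in the *Nr5a2* panel alone, with *Wwtr1* at 1.03, *Lats2* at -0.91 and *Tead2* at -0.78.

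Of the markers of stage and of the oocyte, 2 passed with *Nr5a2* siRNA, both higher. The sum of 5 oocyte markers was 39.0 to 186.0 FPKM (median 100.8) in the 10 pools with it and 25.7 to 69.0 FPKM (median 41.1) in the 14 without, and all 5 markers passed the filter on low values. Of the 5, *Zp3*, a zona pellucida gene, alone was called, at 1.58 ± 0.26 (adjusted p = 0.000107), and the other 4 had differences of -1.16 to -0.04, so that the median of the list was -0.33 while its sum was higher. The sum of 5 markers of the 8C embryo was 49.2 to 221.8 FPKM (median 109.7) against 66.1 to 391.7 FPKM (median 167.9). Of these 5, *Krt8*, a keratin gene of the outer cells, alone was called, and was higher by 1.93 ± 0.40 (adjusted p = 0.00146), while the median of the list was -0.09. Their part in the results for *Wwtr1*, *Lats2* and *Tead2* was not tested. *Wwtr1* itself was lower at 2C than at 8C, and *Lats2* was too, while *Tead2* was higher at 2C.

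Each knockdown compared with its own controls had 2 pools a side, and none of these comparisons called a member. The 4KD and 3KD comparisons with NC also called 0 of the 4 receptors, although these were targeted. The absence of a call for a member there thus says little. In 4KD at 8C, limma called 0 of 9 members and 0.0% of all genes. An unadjusted p under 0.05 was found for 784 of 10476 genes and for 3 members. These were *Wwtr1* at 1.17 ± 0.40 (adjusted p = 0.49), *Lats2* at -1.67 ± 0.52 (adjusted p = 0.438) and *Nf2* at -1.29 ± 0.53 (adjusted p = 0.607). *Nf2* had 3.54 and 6.14 FPKM in 4KD and 10.5 and 15.8 FPKM in NC, without overlap. At 4C, limma called 0 of 9 members in 4KD and 0.0% of all genes. An unadjusted p under 0.05 was found for 610 of 10476 genes and for 2 members. *Wwtr1* was at 21.2 and 24.2 FPKM in 4KD and at 8.92 and 13.2 FPKM in NC (0.99 ± 0.40, adjusted p = 0.836). *Tead2* was listed at 0 in both 4KD pools and was at 1.02 and 2.15 FPKM in NC (-1.33 ± 0.56, adjusted p = 0.849). In this fit *Tead2* passed the filter on low values only through the NC groups, so its difference is no support for a fall. The 4KD effect at 8C minus that at 4C called 0 of 9 members and 0.0% of all genes by limma. An unadjusted p under 0.05 was found for 0 members and for 259 of 10476 genes.

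In the 3KD series, the *Wwtr1* difference from NC was 0.46 without *Nr5a2* siRNA, 1.34 ± 0.40 without *Rarg* siRNA (adjusted p = 0.427), 1.30 ± 0.40 without *Nr1h3* siRNA (adjusted p = 0.49) and 1.52 ± 0.40 without *Nr2c2* siRNA (adjusted p = 0.298). These comparisons share their NC pools. Limma called 0 of 9 members in each, at backgrounds of 0.0%, 0.0565%, 0.00941% and 0.0% in that order. An unadjusted p under 0.05 was found for 0, 1, 1 and 1 members, in each case *Wwtr1*. Over all 10626 genes it was found for 251, 664, 739 and 783. The median of all genes was 0.11 to 0.13 above 0 in these 4 comparisons. The pools that lacked *Nr5a2* siRNA compared with the other 3KD pools differed by -0.92 ± 0.33 in *Wwtr1* (adjusted p = 0.351) and by 1.61 ± 0.42 in *Tead2* (adjusted p = 0.159). Limma called 0 of 9 members there, at a background of 0.282%. Those 2 members had an unadjusted p under 0.05, as had 1075 of 10626 genes. *Tead2* passed the filter in this series only through the group without *Nr5a2* siRNA, at a mean of 2.73 FPKM. Its difference here is thus no support for a higher level.

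In the single KD series, 8 members were tested, since *Lats1* did not reach the filter. *Nr5a2* KD against NC gave 0.49 ± 0.44 for *Wwtr1* and -0.68 ± 0.58 for *Lats2*, and limma called 0 of 8 members at a background of 2.75%. An unadjusted p under 0.05 was found for 0 members and for 1835 of 10163 genes. *Rarg* KD, *Nr1h3* KD and *Nr2c2* KD also had 0 of 8 members called by limma, at backgrounds of 0.00984%, 0.00984% and 0.0787%. They had 0 members at an unadjusted p under 0.05, where 382, 297 and 426 of 10163 genes had one. *Nr5a2* KD against the other single KD groups gave 1.01 ± 0.36 for *Wwtr1* (adjusted p = 0.148). There limma called 0 of 8 members at a background of 3.95%. An unadjusted p under 0.05 was found for 1 member, *Wwtr1*, and for 1980 of 10163 genes. *Wwtr1* passed in that comparison with median-ratio scaling, with quantile normalization, and without the second *Nr5a2* KD pool. The last of these leaves out the pool at 29.5 FPKM, the lower of the 2, and compares the 1 pool at 76.1 FPKM, which is then assumed to vary like the other groups. Without the pool at 76.1 FPKM instead, the difference was 0.34 (adjusted p = 0.517).

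At 2C, no member passed the test in *Nr5a2* KD. None of the 4 receptors, *Nr5a2* included, was called there either, so the absence of a call says little. *Wwtr1* was at 11.6 and 14.6 FPKM in *Nr5a2* KD and at 4.79 and 10.4 FPKM in NC, which do not overlap, with a difference of 0.78 ± 0.49 (adjusted p = 0.89) where the median of all genes was 0.23. *Yap1* was at 22.7 and 24.9 FPKM in *Nr5a2* KD and at 31.1 and 45.1 FPKM in NC, also apart. *Lats2* was listed at 0 in one *Nr5a2* KD pool and was at 4.32 FPKM in the other, against 0.0848 and 0.113 FPKM in NC. Limma called 0 of 8 members at a background of 0.0167%. An unadjusted p under 0.05 was found for 0 members and for 558 of 11958 genes.

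Of the 33 further pathway genes, 24 were tested in the additive fit, and with *Nr5a2* siRNA 3 rose and 3 fell, with a median of 0.05 against -0.02 for all genes, of which 15.6% were called. *Ajuba*, a LIM protein that restrains LATS kinases, fell by 1.17 ± 0.26 (adjusted p = 0.00313), from 2.23 to 11.8 FPKM in pools without to 0.517 to 3.92 FPKM in pools with *Nr5a2* siRNA. *Ctgf*, the YAP target gene, rose by 1.08 ± 0.33 (adjusted p = 0.028), from 0.233 to 4.25 FPKM without to 2.53 to 24.4 FPKM with it. *Rassf1*, which encodes a scaffold of the MST kinases, rose by 1.00 (adjusted p = 0.0136), and *Mob1b*, which encodes a LATS cofactor, rose by 0.75 (adjusted p = 0.0189). *Crb3*, an apical polarity gene, fell by 0.76 (adjusted p = 0.0115), from a median of 73.1 to 38.2 FPKM, and *Stk4* fell by 0.70 (adjusted p = 0.0106). Genes that activate the LATS kinases were thus among those that rose (*Rassf1*, *Mob1b*) and among those that fell (*Stk4*). *Tead4* was at 22.7 to 57.2 FPKM with and 29.6 to 74.9 FPKM without *Nr5a2* siRNA, a difference of -0.53 ± 0.21 that did not pass (adjusted p = 0.0852). Comparisons of 1 knockdown with its own controls called no gene of this list.

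The promoter sequences of the 3 members called with *Nr5a2* siRNA are shown because those members were called with 1 siRNA alone. In the GENCODE annotation of mm9, the build of the FPKM tables, *Wwtr1* lies at chr3:57259571-57379832 on the minus strand, *Lats2* at chr14:58260914-58377225 on the minus strand, and *Tead2* at chr7:52471123-52489005 on the plus strand. The sequences are from RefSeq on another build, GRCm38.p6, run from 250 bases before to 50 bases after a gene start, and are printed 5′ to 3′ on the gene's strand. Capitals mark 3 motifs, each searched on both strands. The nuclear receptor half-site was written as AGGTCA. The start of the longer site that NR5A2 prefers was written as TCAAGG, and can overlap the half-site. The core of TEAD sites was written as CATTCC.
Wwtr1 chr3:57575861-57576160 (-): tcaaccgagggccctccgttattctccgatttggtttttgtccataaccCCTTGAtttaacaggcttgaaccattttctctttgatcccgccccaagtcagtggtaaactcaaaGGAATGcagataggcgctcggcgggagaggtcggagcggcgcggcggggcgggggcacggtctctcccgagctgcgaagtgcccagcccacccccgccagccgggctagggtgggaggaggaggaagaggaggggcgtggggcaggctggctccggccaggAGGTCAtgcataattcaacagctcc
Lats2 chr14:57746074-57746373 (-): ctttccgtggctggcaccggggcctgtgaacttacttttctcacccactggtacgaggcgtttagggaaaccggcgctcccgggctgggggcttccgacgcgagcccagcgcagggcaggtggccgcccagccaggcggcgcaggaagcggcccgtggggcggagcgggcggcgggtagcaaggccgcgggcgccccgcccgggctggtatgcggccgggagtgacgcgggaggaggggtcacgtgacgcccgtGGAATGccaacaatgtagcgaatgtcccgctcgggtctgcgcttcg
Tead2 chr7:45215542-45215841 (+): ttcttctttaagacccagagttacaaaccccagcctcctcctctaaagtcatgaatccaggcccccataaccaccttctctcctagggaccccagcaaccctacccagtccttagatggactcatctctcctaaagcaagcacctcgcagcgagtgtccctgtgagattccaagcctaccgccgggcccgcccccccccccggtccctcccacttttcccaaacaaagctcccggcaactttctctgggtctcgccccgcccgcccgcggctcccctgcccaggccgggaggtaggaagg
The *Wwtr1* promoter held all 3 motifs. Counted from the gene start as 0, the NR5A2 motif began at base -201 and the TEAD core at base -136, both on the opposite strand, and the half-site began at base 25. *Lats2* held the TEAD core at base 4, also on the opposite strand, and *Tead2* held none of the 3 in this window. *Wwtr1* and *Lats2* each had a second start in the table, not printed here, at which the window of *Wwtr1* held the same 3 motifs, with the half-site at base -9, and that of *Lats2* held none. Of all 32851 promoters in the table, 16.3% held the half-site, 14.4% the NR5A2 motif and 14.7% the TEAD core. Of the members, 9 had a promoter in the table, 12 promoters in all, of which 4 held the half-site, 3 the NR5A2 motif and 5 the TEAD core. By gene, the half-site was found in *Wwtr1*, *Amot* and *Amotl2*, the NR5A2 motif in *Wwtr1* and *Amot*, where it overlapped the half-site in *Amot*, and the TEAD core in *Yap1*, *Wwtr1*, *Lats2* and *Amotl2*. A match is a string of letters and no measured binding site.

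Base editing of *Nr5a2* was compared with the mean of its BE and sgRNA controls at each stage. *Wwtr1* had a median of 30.4 FPKM in 8C BE embryos, 15.8 FPKM in 8C sgRNA embryos and 33.2 FPKM in 8C BE + sgRNA embryos. The medians of both controls stood apart, the edited group overlapped both, and the difference was 0.33 ± 0.26 (adjusted p = 0.71). *Amotl2* had medians of 3.14 FPKM with BE, 2.74 FPKM with sgRNA and 6.04 FPKM with both, with a highest value of 25.2 FPKM, and a difference of 0.99 ± 0.44 (adjusted p = 0.404). *Nf2* differed by 0.52 ± 0.26 (adjusted p = 0.482) and *Lats1* by 0.34 ± 0.17 (adjusted p = 0.477). Limma called 0 of 8 members at 8C, at a background of 0.164%. An unadjusted p under 0.05 was found for 1 member, *Amotl2*, and for 1058 of 9760 genes.

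The 8C BE + sgRNA group holds 3 libraries that stand apart. Embryos 13 and 14, with 4-cell column names, had *Wwtr1* at 10.7 and 16.4 FPKM and *Nf2* at 42.9 and 60.4 FPKM, and embryo 8, with the fewest genes, had 7.42 FPKM and 4.72 FPKM. The other 11 embryos had *Wwtr1* at 27.96 to 48.9 FPKM and *Nf2* at 7.79 to 34.7 FPKM, so that the 3 lay below them in *Wwtr1*. The sum of 8C markers was 27.97 FPKM in embryo 8 and 32.9 FPKM in embryo 13, but 112.2 FPKM in embryo 14, against 101.7 to 371.9 FPKM in those 11. Without the libraries with 4-cell names, the *Nf2* difference was 0.30 and that of *Wwtr1* 0.50 (adjusted p = 0.71). Without all 3, a setting chosen after the data had been seen, *Wwtr1* differed by 0.68 ± 0.21 (adjusted p = 0.159), *Lats2* by 0.79 (adjusted p = 0.407), *Amotl2* by 1.49 ± 0.41 (adjusted p = 0.128) and *Nf2* by 0.45 (adjusted p = 0.423). Limma then called 0 of 8 members, and these 4 had an unadjusted p under 0.05. The number of all genes with one in that setting is not given here. Against BE alone, the *Wwtr1* difference was 0.50 among libraries named for eBE and -0.23 among those named for BE4, and neither passed (adjusted p = 0.62 and 0.857).

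At 2C, *Amotl2* pointed the other way from 8C. It had medians of 0.124 FPKM with BE, 2.39 FPKM with sgRNA and 0.0793 FPKM with both, and was listed at 0 in 6 of the 14 edited embryos and 3 of the 8 BE embryos. The difference was -0.89 ± 0.27 (limma adjusted p = 0.216), while in median the BE control alone was as low as the edited group. In this fit *Amotl2* passed the filter only through the controls, with means of 1.27 FPKM (BE) and 2.21 FPKM (sgRNA). The edited group had a mean of 0.299 FPKM, so the difference is no support for a fall. Limma called 0 of 8 members at 2C, at a background of 0.00805%. An unadjusted p under 0.05 was found for 1 member, *Amotl2*, and for 1444 of 12420 genes. The editing effect at 8C minus that at 2C was 1.88 ± 0.53 for *Amotl2* (adjusted p = 0.164) and 0.63 ± 0.26 for *Lats1* (adjusted p = 0.404). Limma called 0 of 8 members in this comparison, at a background of 0.0385%. Those 2 members had an unadjusted p under 0.05, as had 1258 of 12991 genes. Without the libraries with 4-cell names the *Amotl2* value was 2.204 (adjusted p = 0.0522). Without 8C BE + sgRNA embryo 8 as well it was 2.47 ± 0.49 and passed (adjusted p = 0.012), in that setting chosen after the data had been seen. It was 1.91 among libraries named for eBE (adjusted p = 0.493) and 1.62 among those named for BE4 (adjusted p = 0.676), and over all alternatives its adjusted p was 0.012 to 0.796. *Yap1* had medians of 33.8, 37.6 and 37.7 FPKM at 2C and 10.2, 9.53 and 12.3 FPKM at 8C with BE, sgRNA and both, so that its medians were higher at 2C, with some overlap of the stages, and the injections overlapped at each stage.

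**Figure D4:**
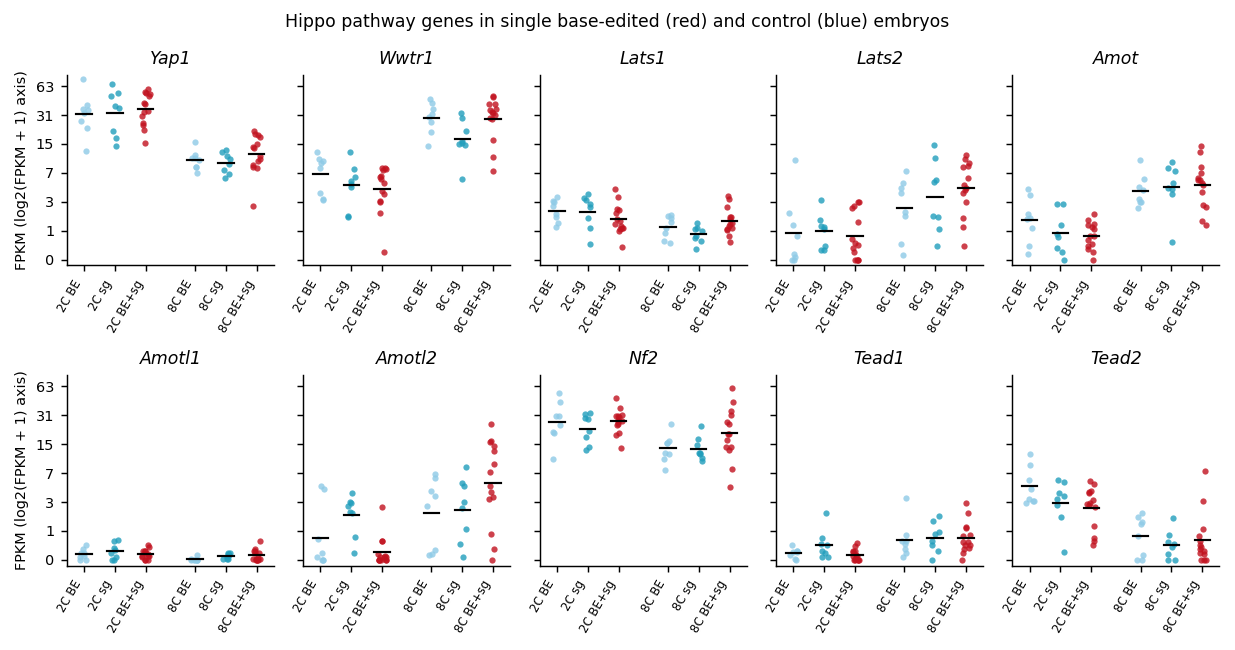
FPKM of the 10 genes in single embryos with BE or sgRNA alone (blue) or both (red) at 2C and 8C (y axis spaced as log2(FPKM + 1)); points are embryos and lines are means on that log scale. *Amotl2* is low in red 2C embryos (median 0.0793 FPKM) and reaches 25.2 FPKM in red 8C embryos, and *Yap1* stands higher and *Wwtr1* lower at 2C than at 8C, with overlap.

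The genes whose levels followed each described member most closely were sought over the means of the 22 groups among 9180 genes, as a description only. These groups share stages and libraries, so that many genes reach a high Pearson correlation. *Kctd3* (r = 0.954), *Itga6* (0.953) and *Arhgap21* (0.951) were most like *Yap1*. *B4galnt1* (0.947), *Perp* (0.942) and *Cstb* (0.941) were most like *Wwtr1*. For *Lats2* they were *Sept8* (0.923), *Vrk2* (0.901) and *Vnn1* (0.899), and for *Tead2* they were *Me1* (0.908), *Sccpdh* (0.896) and *Mtmr2* (0.887). *Amotl1*, the member near 0, reached no more than 0.728, with *Ginm1*.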

How the data were processed

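RNA-seq of 92 libraries in 22 groups was analysed, of 113 samples listed. The other 21 samples were not analysed here. Per the study's methods, the authors made Smart-seq2 libraries, aligned trimmed read pairs with TopHat 2.1.1 (genome mm9) and obtained the deposited FPKM of each gene from Cufflinks 2.2.1 with the UCSC refFlat annotation. FPKM hold no counts, so no counting intervals are given, and values of low genes are coarse. No scaling between libraries was applied.

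Values were taken as log2(FPKM + 1), which understates the change of low genes. Genes with a mean of at least 1 FPKM in at least 1 group of a fit were tested with limma 3.58.1 in R 4.3.3 (moderated test, variance trend), with Benjamini-Hochberg adjustment over all genes of that fit and a call at an adjusted p under 0.05. The limits of the study (an adjusted p below 0.01 with a log2 difference of 2 or more) were an alternative, since its count test needs reads. Groups of 1 experiment shared a fit. The additive fit held 24 pools at 8C, with a term for each siRNA and each experiment. The fits were tested on simulated data. Python 3.11.15 with pandas 2.3.3 and numpy 2.4.6 was used for the summaries.

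Of 310 pairs of libraries within groups, 0 held identical values. Same-numbered libraries deviated together in the 4KD series (r = 0.353 at 4C, 0.346 at 8C) and in the 3KD series (0.278 to 0.513, with 2 library sets by number). They did not in the single KD series (-0.04 to 0.141), the 2C pools (0.004) or the editing groups (-0.096 to 0.125). The main fits, and so their p-values, held no term for these numbers. Only the alternative with the replicate block used them.

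The members and lists were chosen with earlier results of these data known. The named genes were the 10 members, the 4 targeted receptors, *Tead4*, at most the 5 called genes of the pathway list with the largest change in a comparison, and the 3 genes most like a described member. *Stk4* at 8C, *Ginm1*, *Zp3* and *Krt8* were named after their values were seen. Alternatives were the pseudocount (0.1), the filter (none, or 5 FPKM), median-ratio scaling, quantile normalization, no variance trend, the replicate block, fewer groups, and leaving out libraries. In the fits within 1 editor, sgRNA embryos, whose column names give none, were placed by library number, which put none of 2C with BE4, or were left out. Those within 1 experiment, without the second 3KD library set, with sgRNA embryos left out, without the 4 editing libraries that stand apart, and the *Nr5a2* effect minus the other 3 were added after seeing the data. Promoters came from RefSeq (GRCm38.p6), gene positions from a GENCODE annotation of mm9.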

Additional observations from a re-analysis of the deposited data

Results flagged for a closer look

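In groups of 8 embryos, 5 of 40 pairs of gene and group held an embryo far from the other 7, where chance gives about 1 in 20. Its gap to the nearest was above 0.526 of the group's whole range, both taken on the log2(FPKM + 1) scale. *Lats2* was at 9.92 FPKM in 2C BE embryo 1, against 2.04 FPKM in the next. *Amot* was at 0.526 FPKM in 8C sgRNA embryo 7, against 3.85 FPKM in the next lowest. *Amotl1* was at 0.129 FPKM in 8C BE embryo 5, against 0.0297 FPKM in the next, all of them close to 0. *Tead1* was at 2.09 FPKM in 2C sgRNA embryo 8, against 0.683 FPKM in the next. That embryo is the one with a 4-cell column name, and its *Tead4* level was 38.5 FPKM, against 0.874 to 5.13 FPKM in the other 7. *Tead1* was also at 3.41 FPKM in 8C BE embryo 4, against 0.818 FPKM in the next.

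The response of *Wwtr1* differed between siRNAs at 8C: its *Nr5a2* effect exceeded the mean of the *Rarg*, *Nr1h3* and *Nr2c2* effects by 0.96 ± 0.22 (limma adjusted p = 0.00588). Of the oocyte and 8C markers, *Zp3* and *Krt8* were called with *Nr5a2* siRNA, both higher, and their part was not tested.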

How the results depend on the processing

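Counts of members called that moved by over 1.5 times are given here. For the additive *Nr5a2* effect (3 called), the count was 0 with the study's limits, 0 within the 3KD series, 0 within the single KD series and 1 without the second 3KD library set, and 1 to 3 when each pool was left out in turn, with 1 without the second 3KD pool that lacked *Nr5a2* siRNA. *Tead2* reversed to 0.36 within the single KD series. *Wwtr1* held its direction under all 11 alternatives (0.49 to 1.10) and its call in 8. For the *Nr5a2* effect minus the other 3 (1 called), the count was 0 with the study's limits, 0 within the 3KD series, 0 within the single KD series, and 0 to 2 when each pool was left out (0 without the first *Nr5a2* KD pool, 2 without the first NC pool of the 4KD series or the first *Nr2c2* KD pool). For *Nr5a2* KD against the other single KD groups (0 called), the count was 1 with median-ratio scaling, 1 with quantile normalization, and 0 to 1 when each pool was left out. From 2C to 8C in control embryos (7 called), it was 0 with the study's limits and 4 within the BE4 libraries (sgRNA embryos placed by library number) or 2 with the sgRNA embryos left out, and *Lats1* turned to 0.006 with quantile normalization. For the editing effect at 8C minus 2C (0 called), it was 1, *Amotl2*, without the libraries that stand apart. From 2C to 4C in NC pools (2 called), it was 1 with the study's limits, 1 with no filter, and 1 to 2 when each pool was left out, since *Lats2* lost its call without either 2C pool or the first 4C pool. From 2C to 8C in NC pools (3 called), it was 5 with quantile normalization, which called 5111 of 12181 genes and added *Amot* (2.00) and *Tead1* (1.21). Of these 5, *Lats2* and *Tead1* were under the filter in the 2C group and passed it only through later stages. A group left with 1 pool is assumed to vary like the others. Where no count over all genes stands beside it, a moved count cannot be set against a background. The causes were not tested.

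With the replicate block, the additive *Nr5a2* effect still called 3 members, and the effect minus the other 3 called 2 in place of 1, *Tead2* joining *Wwtr1*. The block changed no other count of calls by over 1.5 times. In the series where the numbers did not pair libraries, they are only names.

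Depth is unknown, and genes near or under 1 FPKM (*Amotl1*, *Tead1*, *Tead2*, *Lats1*) are the least precise.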
